A study of Mus musculus with 9 samples.

Results

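Chemokine and chemoattractant receptors are the sensors by which myeloid cells find their way into a tumor, and 9 of their genes (Ccr1, Ccr2, Ccr7, Ccrl2, Cxcr4, Ltb4r1, Fpr1, Fpr2 and Cmklr1) were followed here across 4 treatment groups. They were taken by their Ensembl identifiers from a raw count table of 53801 genes, and all 9 were among the 12538 protein-coding genes that passed the filter on low counts. The libraries came from CD11b+ cells sorted out of the tumor-bearing hemispheres of male C57BL/6J mice, 10 to 12 weeks old when the study began, that carried GL261 gliomas expressing tdTomato and luciferase. Control mice (CTR, 2 libraries) received saline, OAT-1746 mice (2 libraries) received an oral inhibitor of both arginases at 50 mg/kg, anti-PD-1 mice (2 libraries) received an antibody against the checkpoint receptor at 2.5 mg/kg, and COMB mice (3 libraries) received both. The methods give day 28 and the figure legend gives day 21 for the collection of the cells. For replicate 2 of the anti-PD-1 group the deposited label gives a target other than PD-1, and its title was followed. NK cells and part of the dendritic cells can carry CD11b too, so the sort is not limited to microglia, monocytes, macrophages and granulocytes. Total counts per library were 17490386 and 17729568 in CTR, 17380045 and 16784406 in OAT-1746, 14356928 and 18796479 in anti-PD-1, and 13048075, 16144518 and 14806017 in COMB.

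These receptors cross the membrane as bundles of helices and signal through inhibitory G proteins, whose freed subunits switch on lipid kinases, Rac and the actin machinery at the leading edge of a cell. Receptor kinases, arrestins and RGS proteins end the signal. Ccr2 draws inflammatory monocytes out of the blood towards Ccl2 and Ccl7, Ccr1 responds to Ccl3, Ccl5 and related ligands, Cxcr4 binds Cxcl12, and Ccr7 leads mature dendritic cells to lymph nodes along Ccl19 and Ccl21. Ccrl2 is an atypical receptor that is not known to signal and presents chemerin to neighboring cells that carry the chemerin receptor Cmklr1. Ltb4r1 is the high-affinity receptor for the lipid leukotriene B4, and Fpr1 and Fpr2 detect formylated peptides from bacteria and damaged mitochondria and, in the case of Fpr2, annexin A1 and serum amyloid A. In a figure of the study Cxcr4 and Ltb4r1 stand in heatmaps of selected genes from these same libraries and Ccr2 stands under a gene ontology term, so their directions here are not independent evidence.

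OAT-1746 replicate 2 stood apart from the other libraries. It had a median absolute log2 difference from the CTR mean of 0.586 over all tested genes, against 0.316 for OAT-1746 replicate 1 and 0.199 to 0.266 for the anti-PD-1 and COMB libraries. Its Pearson correlation with OAT-1746 replicate 1 was 0.956 and with the other libraries it went down to 0.911. Receptor fold changes that draw on the OAT-1746 group are therefore also given without it, as are edgeR's calls on the gene lists.

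The 9 receptors covered a wide range of abundance. On the scale of CPM (counts scaled to a common library size) per kb of exon, averaged over the 9 libraries, Ccr1 stood at 150, Cmklr1 at 134, Cxcr4 at 102 and Ccrl2 at 99.2. Ccr2 followed at 37.0, Fpr2 at 29.8, Ltb4r1 at 21.2 and Ccr7 at 18.9, and Fpr1 was the scarcest at 4.86. Raw counts ran from 36 for Fpr1 in OAT-1746 replicate 2 to 10400 for Ccr1 in COMB replicate 2, so Fpr1 values carry the largest counting error. The receptors also differed in how much they moved between libraries. The highest CPM was 25.5 times the lowest for Fpr2, 11.7 times for Ccr1 and 10.6 times for Ltb4r1, and 1.33 times for Cmklr1. The lowest value belonged to OAT-1746 replicate 2 for Ccr1, Ccr2, Ccr7, Cxcr4, Ltb4r1, Fpr1 and Fpr2, and the highest belonged to COMB replicate 2 for Ccr1, Ltb4r1, Fpr1 and Fpr2.

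**Figure D1:**
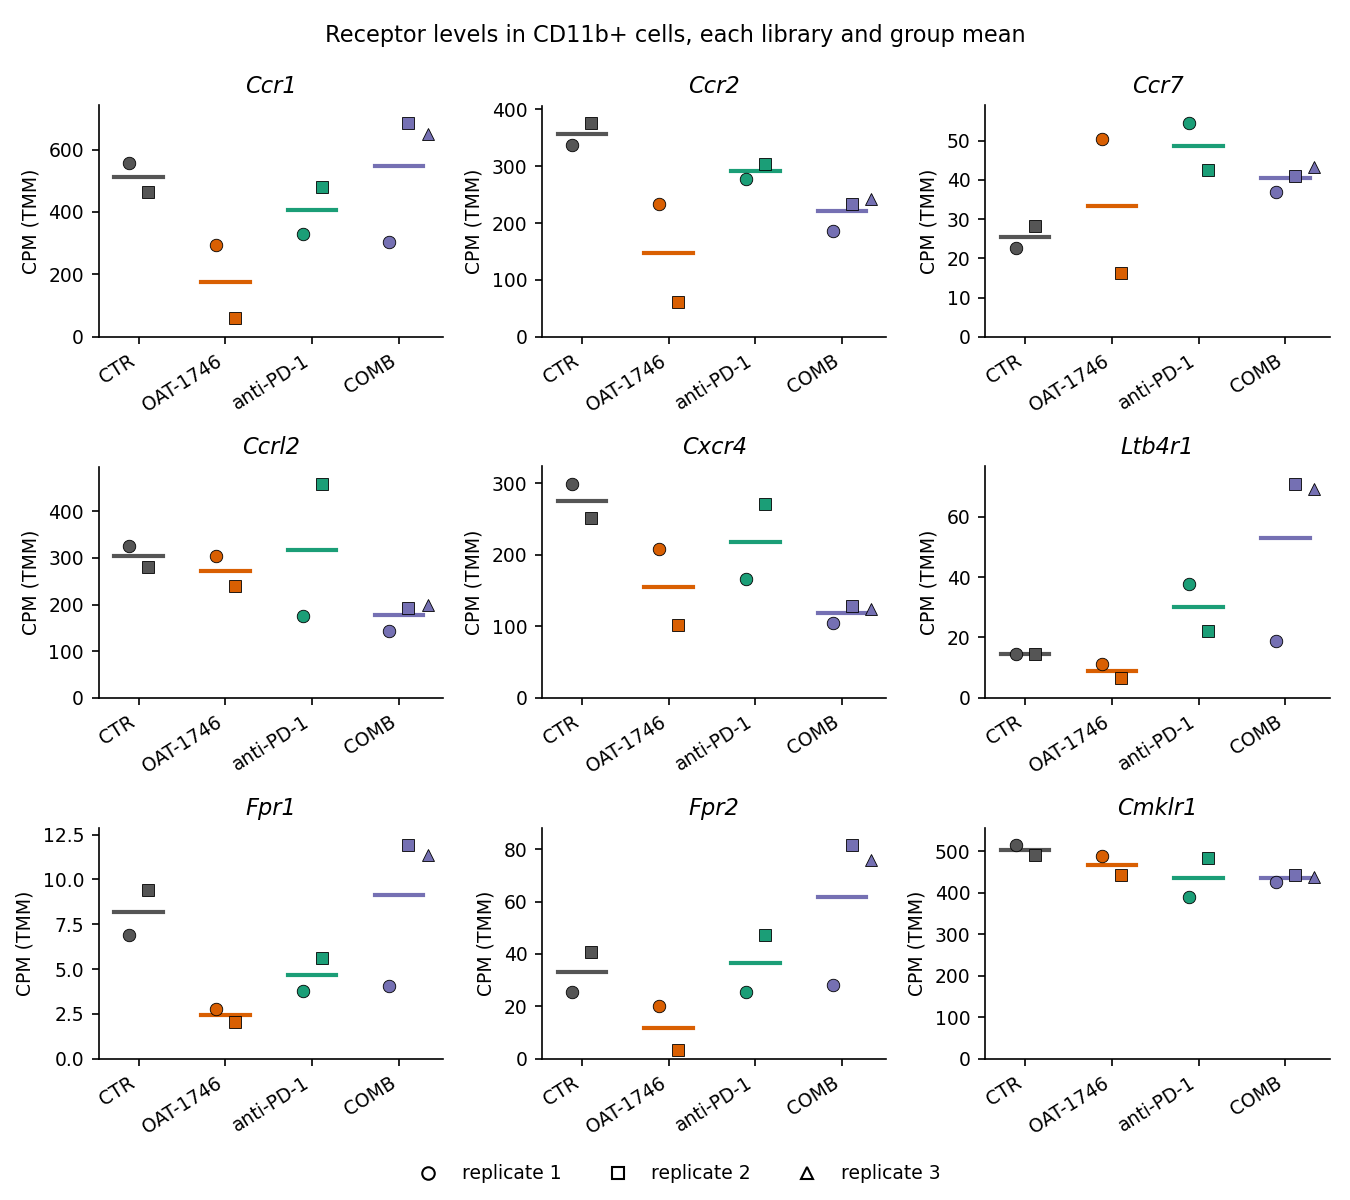
CPM (TMM-scaled) of each receptor in every library, 1 panel per gene; points are libraries, shaped by replicate number, and the bar is the group mean. COMB replicates 2 and 3 lie above COMB replicate 1 for Ccr1, Ltb4r1, Fpr1 and Fpr2, and OAT-1746 replicate 2 is the lowest point for these genes and for Ccr2, Ccr7 and Cxcr4.

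On the GRCm38 genome, Ccr1 (ENSMUSG00000025804, chr9:123962124-123968692) and Ccr2 (ENSMUSG00000049103, chr9:124101950-124113557) lie in the chemokine receptor cluster of chromosome 9, and Ccrl2 (ENSMUSG00000043953, chr9:111054486-111057519) lies on the same chromosome. Fpr1 (ENSMUSG00000045551, chr17:17876471-17883940) and Fpr2 (ENSMUSG00000052270, chr17:17887824-17893952) are neighbors on chromosome 17. The others are Ccr7 (ENSMUSG00000037944, chr11:99144196-99155077), Cxcr4 (ENSMUSG00000045382, chr1:128588199-128592293), Ltb4r1 (ENSMUSG00000046908, chr14:55765962-55768494) and Cmklr1 (ENSMUSG00000042190, chr5:113612354-113650426). Fpr2 shares 48 of its 1296 exon bases (3.7%) with Fpr3 on the same strand, where reads cannot be assigned to 1 gene, Fpr3 had 0 counts in all libraries, and the other 8 share no exon base with another gene on their strand.

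Ltb4r1, the leukotriene B4 receptor, had its lowest group mean in OAT-1746 and its highest in COMB. Its level was 14.4 and 14.6 CPM in CTR, 11.4 and 6.70 CPM in OAT-1746, 37.8 and 22.3 CPM in anti-PD-1, and 18.9, 71.1 and 69.3 CPM in COMB. Both OAT-1746 libraries were the lowest of the 9, both CTR libraries came next, and COMB overlapped anti-PD-1 because COMB replicate 1 was far below its group. The group means were 14.5 ± 0.163 CPM (SD, n = 2) in CTR, 9.02 ± 3.29 (n = 2) in OAT-1746, 30.01 ± 11.0 (n = 2) in anti-PD-1 and 53.1 ± 29.6 (n = 3) in COMB.

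The formyl peptide receptors followed with the same pair of COMB libraries on top. Fpr1 measured 6.91 and 9.41 CPM in CTR, 2.79 and 2.06 CPM in OAT-1746, 3.76 and 5.64 CPM in anti-PD-1, and 4.08, 11.9 and 11.3 CPM in COMB. Fpr2 measured 25.4 and 40.6 CPM in CTR, 20.1 and 3.20 CPM in OAT-1746, 25.6 and 47.3 CPM in anti-PD-1, and 28.04, 81.8 and 75.9 CPM in COMB. For both genes the OAT-1746 libraries were the lowest, COMB replicates 2 and 3 the highest, and COMB replicate 1 fell within the range of the anti-PD-1 pair. Ccr1, the receptor for Ccl3 and Ccl5, measured 558 and 463 CPM in CTR, 295 and 58.6 CPM in OAT-1746, 331 and 480.4 CPM in anti-PD-1, and 303, 686 and 649 CPM in COMB. It had the same extremes, with OAT-1746 below the other groups and the CTR, anti-PD-1 and COMB groups overlapping.

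Since Ccr1, Fpr1 and Fpr2 shared their lowest and highest libraries and Ltb4r1 had the largest difference between groups that passed the test, their promoters are shown. RefSeq (GRCm38.p6) gave promoters for 8 of the 9 receptors, 10 entries in all, each with 250 bases before and 50 after the start, and Ccr7 has no entry. Capitals mark matches on either strand to 4 motifs of myeloid regulators: GGAA, the core of ETS sites, TGANTCA for AP-1, TTGCNNCAA for C/EBP, and GGG, any 5 bases, then CC for NF-kB. The sequences run 5′ to 3′ on the gene's strand at chr9:123968643-123968942 (minus) for Ccr1, chr17:17883890-17884189 (minus) for Fpr1, chr17:17887574-17887873 (plus) for Fpr2 and chr14:55765712-55766011 (plus) for Ltb4r1.
Ccr1: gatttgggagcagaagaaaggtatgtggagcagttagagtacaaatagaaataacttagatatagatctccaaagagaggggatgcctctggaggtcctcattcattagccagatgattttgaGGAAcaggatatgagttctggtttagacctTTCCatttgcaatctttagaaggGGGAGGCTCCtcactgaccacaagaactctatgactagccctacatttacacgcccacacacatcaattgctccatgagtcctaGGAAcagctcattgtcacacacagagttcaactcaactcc
Fpr1: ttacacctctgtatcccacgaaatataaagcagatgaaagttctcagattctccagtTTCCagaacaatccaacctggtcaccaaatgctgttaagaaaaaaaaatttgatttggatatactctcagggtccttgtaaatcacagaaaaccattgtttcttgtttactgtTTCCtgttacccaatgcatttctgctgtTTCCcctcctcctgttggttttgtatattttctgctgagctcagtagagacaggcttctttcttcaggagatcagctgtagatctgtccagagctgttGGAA
Fpr2: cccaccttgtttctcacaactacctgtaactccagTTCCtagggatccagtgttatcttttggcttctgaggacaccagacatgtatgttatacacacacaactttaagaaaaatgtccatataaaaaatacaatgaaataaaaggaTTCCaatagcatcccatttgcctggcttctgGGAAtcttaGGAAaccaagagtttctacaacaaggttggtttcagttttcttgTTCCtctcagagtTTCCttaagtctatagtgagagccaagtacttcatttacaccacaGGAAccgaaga
Ltb4r1: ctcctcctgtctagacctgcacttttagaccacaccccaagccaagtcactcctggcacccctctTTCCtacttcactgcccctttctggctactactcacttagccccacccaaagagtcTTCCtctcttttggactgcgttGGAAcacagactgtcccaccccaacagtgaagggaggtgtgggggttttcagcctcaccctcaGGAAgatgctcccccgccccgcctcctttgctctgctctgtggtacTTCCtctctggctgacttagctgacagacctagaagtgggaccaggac
GGAA matched 3 times in Ccr1, 4 times in Fpr1, 7 times in Fpr2 and 5 times in Ltb4r1, beside at least 1 match in 96.0% of 32851 mouse promoters and a mean of 3.52. The NF-kB letters matched 1 time in Ccr1 and 0 times in Fpr1, Fpr2 and Ltb4r1, and 50.8% of all promoters had a match. In the 10 receptor entries the AP-1 and C/EBP letters were not found, and they occur in 7.81% and 2.08% of all promoters. A match is a description of the letters and was not tested as a binding site.

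The comparison of COMB with OAT-1746 asks what the antibody added in mice that took the arginase inhibitor, and it gave the receptor calls of edgeR in this data set. Ltb4r1 was 5.89-fold higher in COMB (log2 fold change 2.56, SE 0.55) and Fpr1 3.76-fold higher (1.91, SE 0.47). Both rose by edgeR's quasi-likelihood test with Benjamini-Hochberg adjustment over all tested genes, with adjusted p = 0.0281 for Ltb4r1 and adjusted p = 0.0347 for Fpr1, and in 3 of 3 COMB libraries they exceeded both OAT-1746 libraries. Fpr2 had a log2 fold change of 2.41 (SE 0.73, adjusted p = 0.0527) and Ccr1 of 1.63 (SE 0.61, adjusted p = 0.0887), each with 3 of 3 COMB libraries above both OAT-1746 libraries. The other 5 receptors had values of 0.58 for Ccr2, 0.28 for Ccr7, -0.10 for Cmklr1, -0.38 for Cxcr4 and -0.61 for Ccrl2, and none of them passed.

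Thus 2 of 9 receptors were called higher and 0 lower, where 6.84% of all tested genes were called higher and 8.94% lower. At an unadjusted p under 0.05, 4 receptors were higher (Ccr1, Ltb4r1, Fpr1 and Fpr2) and 0 lower, beside 18.3% and 18.8% of all genes. The median log2 fold change of the 9 was 0.58 and that of all genes 0.00, and without OAT-1746 replicate 2 the receptor median was -0.069, of opposite sign. DESeq2 called Ltb4r1, Fpr1 and Fpr2 higher, beside 13.2% of all genes, and limma voom Ltb4r1, Fpr2 and Ccr1, beside 10.8%. Both receptor calls were lost in some settings. With only COMB and OAT-1746 scaled, filtered and fitted, the adjusted p was 0.0820 for Ltb4r1 and 0.0848 for Fpr1 and all genes called went from 1979 to 30, and with a replicate block it was 0.217 for each. Without OAT-1746 replicate 2 the fold changes were 2.23 (adjusted p = 0.168) for Ltb4r1 and 1.72 (adjusted p = 0.190) for Fpr1, those of Fpr2 and Ccr1 were 1.63 and 0.90, those of Ccr2, Ccr7, Cmklr1, Cxcr4 and Ccrl2 were -0.069, -0.31, -0.16, -0.79 and -0.75, and all genes called went from 1979 to 27. Without COMB replicate 2 the adjusted p was 0.106 for Ltb4r1 and 0.121 for Fpr1, and without COMB replicate 3 it was 0.112 and 0.121. For Fpr1 the call was also lost by a narrow margin without CTR replicate 1 (0.0528), CTR replicate 2 (0.0546) or either anti-PD-1 library (0.0507), while Ltb4r1 stayed called without each of these 4. Leaving out COMB replicate 1 gave a larger Fpr2 fold change of 2.72 that was called (adjusted p = 0.0306), and leaving out OAT-1746 replicate 1 gave calls for 4 more receptors, at 4.27 for Fpr2 (adjusted p = 0.00418), 3.22 for Ccr1 (adjusted p = 0.00287), 1.84 for Ccr2 (adjusted p = 0.00132) and 1.32 for Ccr7 (adjusted p = 0.00435), beside 18.1% of all genes called higher and 13.3% lower.

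**Figure D2:**
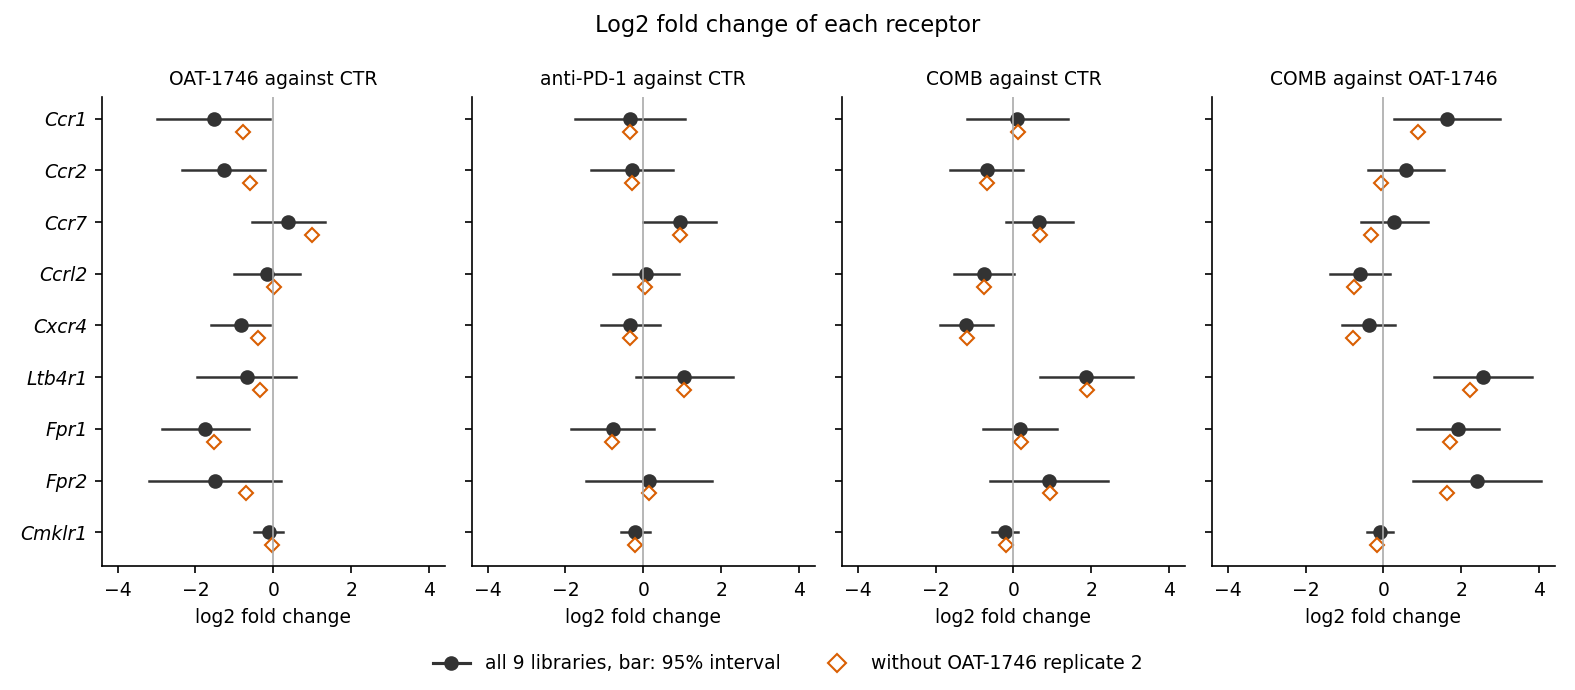
Log2 fold change of each receptor in 4 comparisons; filled circles use all 9 libraries with 95% confidence intervals, and open diamonds leave out OAT-1746 replicate 2. In COMB against OAT-1746, Ltb4r1 moves from 2.56 to 2.23 and Ccr1 from 1.63 to 0.90 without that library.

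Ccr2 and Cxcr4, the receptors of monocyte recruitment and of retention by Cxcl12, were highest in CTR. Ccr2 measured 337 and 377 CPM in CTR, 234 and 61.7 CPM in OAT-1746, 278 and 304 CPM in anti-PD-1, and 186, 234 and 243 CPM in COMB. Cxcr4 measured 299 and 252 CPM in CTR, 208 and 101 CPM in OAT-1746, 166 and 270.0 CPM in anti-PD-1, and 105, 129 and 124 CPM in COMB. Every treated library lay below both CTR libraries for Ccr2, with OAT-1746 and COMB overlapping. For Cxcr4 the COMB and OAT-1746 libraries lay below CTR, and anti-PD-1 replicate 2 lay between the CTR values.

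In OAT-1746 against CTR, the comparison for the arginase inhibitor alone, Fpr1 had a log2 fold change of -1.75 (SE 0.49, adjusted p = 0.0726), Ccr1 of -1.53 (SE 0.64, adjusted p = 0.139), Ccr2 of -1.27 (SE 0.47, adjusted p = 0.110) and Cxcr4 of -0.83 (SE 0.34, adjusted p = 0.128). Both OAT-1746 libraries were below both CTR libraries for each of these genes. The values were -1.50 for Fpr2, -0.68 for Ltb4r1, -0.16 for Ccrl2, -0.11 for Cmklr1 and 0.39 for Ccr7. With edgeR, 0 of 9 receptors passed after adjustment, as did 0% of all genes higher and 0% lower. DESeq2 called 2 receptors lower (Fpr1, adjusted p = 0.0104, and Ccr2, adjusted p = 0.0422), beside 7.37% of all genes called lower and 8.36% higher, and limma voom called 0. At an unadjusted p under 0.05, 0 receptors were higher and 4 lower (the first 4 named), where 16.1% of all genes were higher and 16.2% lower, and the median over the receptors was -0.83 against 0.01 over all genes, and -0.39 without OAT-1746 replicate 2.

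OAT-1746 replicate 2 set much of this size. Without it, Fpr1 was at -1.53, Ccr2 at -0.60, Ccr1 at -0.78, Cxcr4 at -0.39, Fpr2 at -0.70, Ltb4r1 at -0.34, Ccrl2 at 0.012 and Cmklr1 at -0.029. Ccr7 then stood at 1.00 (adjusted p = 0.234), and 1 receptor was higher (Ccr7) and 2 lower (Ccr2 and Fpr1) at an unadjusted p under 0.05, beside 8.30% and 6.33% of all genes. Without OAT-1746 replicate 1, Ccr1 was called at -3.13 (adjusted p = 0.00405), Ccr2 at -2.53 (adjusted p = 0.000781), Cxcr4 at -1.45 (adjusted p = 0.00953), Fpr2 at -3.37 (adjusted p = 0.0112) and Fpr1 at -1.99 (adjusted p = 0.0439), beside 17.0% of all genes called lower and 11.2% higher, and Fpr1 was also called without COMB replicate 1 (adjusted p = 0.0465). The count of lower receptors at an unadjusted p under 0.05 fell without either CTR library and was 2 without COMB replicate 3, beside 13.2% of all genes lower. Ccr7, at 0.39 with all libraries, turned to -0.65 without OAT-1746 replicate 1. A bulk library cannot tell fewer cells of a receptor-bearing type from less receptor RNA in each cell, and this holds for all values given here.

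In COMB against CTR, the comparison for both agents together, Cxcr4 was at a log2 fold change of -1.21 (SE 0.30, adjusted p = 0.673) and Ltb4r1 at 1.88 (SE 0.53, adjusted p = 0.673). All 3 COMB libraries were below both CTR libraries for Cxcr4 and above both for Ltb4r1. Ccrl2, the chemerin-presenting receptor, measured 326 and 281 CPM in CTR, 303 and 241 CPM in OAT-1746, 175 and 459 CPM in anti-PD-1, and 144, 193 and 198 CPM in COMB. The COMB libraries were below the CTR and OAT-1746 libraries, and the anti-PD-1 pair reached from within the COMB range to the highest value of all. Its fold change in COMB against CTR was -0.77 (SE 0.34, adjusted p = 0.752). Ccr2 was at -0.69, Cmklr1 at -0.21, Ccr1 at 0.10, Fpr1 at 0.16, Ccr7 at 0.67 and Fpr2 at 0.91. Ccr1 and Fpr1 turned to -0.10 and -0.080 without COMB replicate 2, and were at 0.37 and 0.49 without COMB replicate 1.

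edgeR called 0 of 9 receptors in COMB against CTR, with 0% of all genes called higher and 0% lower. At an unadjusted p under 0.05, 1 receptor was higher (Ltb4r1) and 1 lower (Cxcr4), beside 3.21% and 3.37% of all genes. DESeq2 called Ltb4r1 (adjusted p = 0.0415), beside 0.152% of all genes higher, and limma voom called 0. Without COMB replicate 1 the Ltb4r1 value was 2.26 (adjusted p = 0.292), and over the 9 leave-1-out fits Cxcr4 stayed between -1.33 and -1.06. Without either OAT-1746 library, a group outside this comparison that enters its scaling, its filter and its estimate of spread, 2 receptors were higher and 3 lower at an unadjusted p under 0.05, beside 4.09% and 4.90% of all genes without replicate 1 and 4.67% and 4.18% without replicate 2.

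Anti-PD-1 against CTR, the comparison for the antibody alone, had no receptor that passed the test. The anti-PD-1 libraries did not overlap those of CTR for Ccr2, Fpr1 and Cmklr1, which were lower, and for Ccr7 and Ltb4r1, which were higher. For Cmklr1 the margin was small, at -0.036 in CTR replicate 2 and -0.056 in anti-PD-1 replicate 2 (log2 difference from the CTR mean). The share of all genes whose libraries separate in this way was not counted, for this or any other pair of groups. With so few libraries in each group, a separation alone carries little weight. Ccr7, the lymph node homing receptor of mature dendritic cells, measured 22.7 and 28.3 CPM in CTR, 50.5 and 16.3 CPM in OAT-1746, 54.6 and 42.6 CPM in anti-PD-1, and 36.9, 41.1 and 43.3 CPM in COMB. Both anti-PD-1 libraries and all 3 COMB libraries exceeded both CTR libraries, and the OAT-1746 pair spanned nearly the whole range. The fold change of Ccr7 in anti-PD-1 against CTR was 0.93 (SE 0.42, adjusted p = 0.951) and that of Ltb4r1 was 1.05 (SE 0.55, adjusted p = 0.966). The others ran from -0.79 for Fpr1 to 0.14 for Fpr2, which was -0.37 without anti-PD-1 replicate 2 and -0.16 without CTR replicate 1. By edgeR 0 receptors were called, as were 0% of all genes in each direction, and 0 reached an unadjusted p under 0.05, beside 3.18% of all genes higher and 1.94% lower. DESeq2 and limma voom called 0 receptors here. The Ccrl2 value of 0.07 rested on anti-PD-1 replicate 2, the highest library, and was -0.80 without it and 0.60 without anti-PD-1 replicate 1, where Ltb4r1 was at 0.62. At an unadjusted p under 0.05, 1 receptor was higher and 1 lower without COMB replicate 1, beside 2.72% and 2.47% of all genes. The receptor count also rose without either OAT-1746 library or without anti-PD-1 replicate 2.

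COMB against anti-PD-1 asks what the arginase inhibitor added to the antibody. Cxcr4 was at -0.87 (SE 0.30, adjusted p = 0.589) and Ccrl2 at -0.83 (SE 0.34, adjusted p = 0.661), and without anti-PD-1 replicate 2 they were at -0.48 and 0.032. Fpr1 was at 0.95, Ltb4r1 at 0.83, Fpr2 at 0.76 and Ccr1 at 0.43, and without anti-PD-1 replicate 1 or 2 Ltb4r1 was at 1.25 or 0.50, Fpr2 at 0.39 or 1.28 and Ccr1 at 0.18 or 0.73. edgeR, DESeq2 and limma voom called 0 receptors, as were 0% of all genes higher and 0% lower by edgeR. At an unadjusted p under 0.05, 0 receptors were higher and 2 lower (Cxcr4 and Ccrl2), beside 1.98% and 5.26% of all genes. The 2 lower receptors became 1 without COMB replicate 2 or COMB replicate 3, beside 2.66% and 2.26% of all genes lower. Their number also fell without either CTR library or anti-PD-1 replicate 2, and rose without either OAT-1746 library. Without COMB replicate 1, 2 receptors were higher and 0 lower, beside 3.77% and 6.51% of all genes. The interaction, which is the OAT-1746 difference with the antibody minus that without it, was 2.70 for Fpr1 (SE 0.66, adjusted p = 0.0926), 1.96 for Ccr1 (SE 0.86, adjusted p = 0.189), 2.26 for Fpr2 (SE 1.01, adjusted p = 0.192) and 1.51 for Ltb4r1 (SE 0.76, adjusted p = 0.233). It was 0.87 for Ccr2, 0.11 for Cmklr1, -0.04 for Cxcr4, -0.65 for Ccr7 and -0.67 for Ccrl2. edgeR and limma voom called 0 receptors and DESeq2 called Fpr1, beside 3.61% of all genes higher. Of all genes, 0.00798% were called higher and 0.351% lower, and at an unadjusted p under 0.05 the shares were 11.8% and 14.4%, beside 2 receptors higher (Fpr1 and Ccr1) and 0 lower. Without OAT-1746 replicate 2 the interaction was 2.51 for Fpr1, 1.24 for Ccr1, 1.49 for Fpr2, 1.18 for Ltb4r1, 0.23 for Ccr2, 0.055 for Cmklr1, -0.45 for Cxcr4, -0.81 for Ccrl2 and -1.24 for Ccr7, and without COMB replicate 1 that of Fpr1 was called (adjusted p = 0.0344). Without OAT-1746 replicate 1 it was called for Fpr2 (4.13, adjusted p = 0.0143), Ccr1 (3.56, adjusted p = 0.00788), Fpr1 (2.94, adjusted p = 0.0276) and Ccr2 (2.14, adjusted p = 0.00400), beside 12.8% of all genes called higher.

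Cmklr1, the signaling chemerin receptor, was the steadiest of the 9. Its levels ran from 388 CPM in anti-PD-1 replicate 1 to 516 CPM in CTR replicate 1, and its fold changes in the 5 comparisons of a pair of groups ran from -0.21 to -0.00, of which the last, in COMB against anti-PD-1, turned to 0.024 with DESeq2 size factors. Its 95% interval in COMB against CTR was -0.55 to 0.13. Ordered by group mean, Cmklr1 was highest in CTR, whose libraries did not overlap those of OAT-1746 in second place, and then came anti-PD-1 and COMB, which overlapped their neighbors. Ccr1 went from COMB to CTR, anti-PD-1 and OAT-1746, and the last step alone was free of overlap. Ccr2 went from CTR to anti-PD-1, COMB and OAT-1746, with overlap between the last pair. Fpr1 went from COMB to CTR, anti-PD-1 and OAT-1746, with overlap between the first pair. Fpr2 and Ltb4r1 both went from COMB to anti-PD-1, CTR and OAT-1746, and OAT-1746 was apart for both, while CTR was apart from anti-PD-1 for Ltb4r1. Ccrl2 went from anti-PD-1 to CTR, OAT-1746 and COMB, with COMB apart. Ccr7 went from anti-PD-1 to COMB, OAT-1746 and CTR, and Cxcr4 from CTR to anti-PD-1, OAT-1746 and COMB, with every neighboring pair overlapping.

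For each receptor the genes with the most similar log2 CPM over the 9 libraries were listed by Pearson r, as a description of libraries that share their groups. Ccr1 was closest to Txn2 (r = 0.996), Adamtsl4 and Pla2g7, Ccr2 to Scarb1 (r = 0.993), Mical1 and Slc25a24, and Fpr2 to Rnf149 (r = 0.993), Flad1 and 9130401M01Rik. Fpr1 was closest to Psmd10 (r = 0.987), Kpna2 and Hps1, and Ltb4r1 to Vps26c (r = 0.981), Exosc4 and Mettl9. Ccrl2 was closest to the AP-1 family gene Fosl2 (r = 0.988), Rbm10 and Ciz1, and Cxcr4 to Mapk6 (r = 0.974), Gm6377 and Tgfb1. Ccr7 was closest to Cacnb3 (r = 0.958), Tppp3 and Ssc4d, and Cmklr1 had the lowest top value, with Trp53inp2 (r = 0.940), Plk4 and Abi1. Over the 8 libraries without OAT-1746 replicate 2 the first-named r was 0.975 for Ccr1, 0.963 for Ccr2, 0.976 for Fpr2, 0.984 for Fpr1, 0.982 for Ltb4r1, 0.994 for Ccrl2, 0.967 for Cxcr4, 0.908 for Ccr7 and 0.938 for Cmklr1.

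The ligands of these receptors moved in both directions in COMB against OAT-1746. Of 13 chemokine ligands listed, 11 were tested, 2 rose and 2 fell, beside 6.84% of all genes called higher and 8.94% lower. Ccl3, a ligand of Ccr1, and Ccl4 fell by 2.26 and 1.51 on the log2 scale (SE 0.34 and 0.28, adjusted p = 0.0160 and 0.0212), and Ccl7, a ligand of Ccr2, and Mif, both named here after their values were seen, rose by 1.61 (adjusted p = 0.0287) and 1.41 (adjusted p = 0.0371). With OAT-1746 replicate 2 left out, Ccl3 was at -1.49, Ccl4 at -0.89, Ccl7 at 1.14 and Mif at 1.01, and 0 of them were called. Ccl3 measured 101 and 62.8 CPM in CTR, 79.5 and 189 CPM in OAT-1746, 70.6 and 88.1 CPM in anti-PD-1, and 31.7, 24.6 and 27.9 CPM in COMB, so COMB lay below all other libraries. Of 7 genes for other ligands and leukotriene B4 synthesis, Lta4h, which makes leukotriene B4, rose (0.53, adjusted p = 0.0420) and Alox5, the 5-lipoxygenase that begins the pathway, fell by 0.97 on the log2 scale (adjusted p = 0.0426), while Alox5ap, the most abundant of the list by CPM, was at 0.21. These were at 0.48, -0.57 and -0.040 without OAT-1746 replicate 2. Ccl5, the most abundant listed chemokine by CPM, was at 0.98 (adjusted p = 0.107).

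Of 27 other chemoattractant receptors, 16 were tested and edgeR called 0 in COMB against OAT-1746, with 0 higher and 2 lower at an unadjusted p under 0.05 (Gpr183, -0.78, and Cx3cr1, -0.75), where 18.3% of all genes were higher and 18.8% lower, and DESeq2 and limma voom each called 2 lower. Cx3cr1, the fractalkine receptor of microglia, was the most abundant of them and measured 2944 and 4247 CPM in CTR, 5881 and 7576 CPM in OAT-1746, 4546 and 3569 CPM in anti-PD-1, and 5174, 3449.5 and 3386 CPM in COMB. Of 16 signal transducers, 0 rose and 3 fell, namely the gamma lipid kinase subunits Pik3cg, which fell by 0.80 on the log2 scale (adjusted p = 0.0330), and Pik3r5, named after its value was seen, which fell by 0.66 (adjusted p = 0.0449), and the Rac activator Elmo1, which fell by 0.77 (adjusted p = 0.0377). They were at -0.55, -0.49 and -0.52 without OAT-1746 replicate 2. At an unadjusted p under 0.05, 2 transducers were higher and 6 lower, and the shares of all genes are those given above for calls and for unadjusted p. DESeq2 called 1 transducer higher and 4 lower, limma voom 3 and 3, and edgeR 5 and 3 without OAT-1746 replicate 1 and 1 and 5 without COMB replicate 1. Gnai2, the most abundant, was at 0.27. Of 12 kinases, arrestins and RGS proteins edgeR called 0, with 1 higher and 3 lower at an unadjusted p under 0.05, among them Rgs18 (-1.18) and Arrb1 (-0.38), and Arrb2, the most abundant, was at 0.10. DESeq2 called 0 higher and 1 lower of these and limma voom 1 and 1. Rgs18 was at -0.79 without OAT-1746 replicate 2 and at -1.56 without COMB replicate 1.

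The medians of log2 fold change in this comparison were 0.52 for chemokine ligands, 0.53 for other ligands, -0.23 for other receptors, 0.12 for transducers and -0.11 for kinases, arrestins and RGS proteins, beside 0.00 for all genes, and without OAT-1746 replicate 2 they were 0.30, 0.48, -0.098, 0.036 and -0.19 in that order. The list calls depended on single libraries as the receptor calls did. Without OAT-1746 replicate 2, COMB replicate 2 or COMB replicate 3, 0 genes of these 5 lists were called. Without either CTR or either anti-PD-1 library 1 chemokine ligand was called higher and 2 lower and 0 genes of the other lists were called, and without OAT-1746 replicate 1 the calls among the chemokine ligands were 5 higher and 2 lower.

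**Figure D3:**
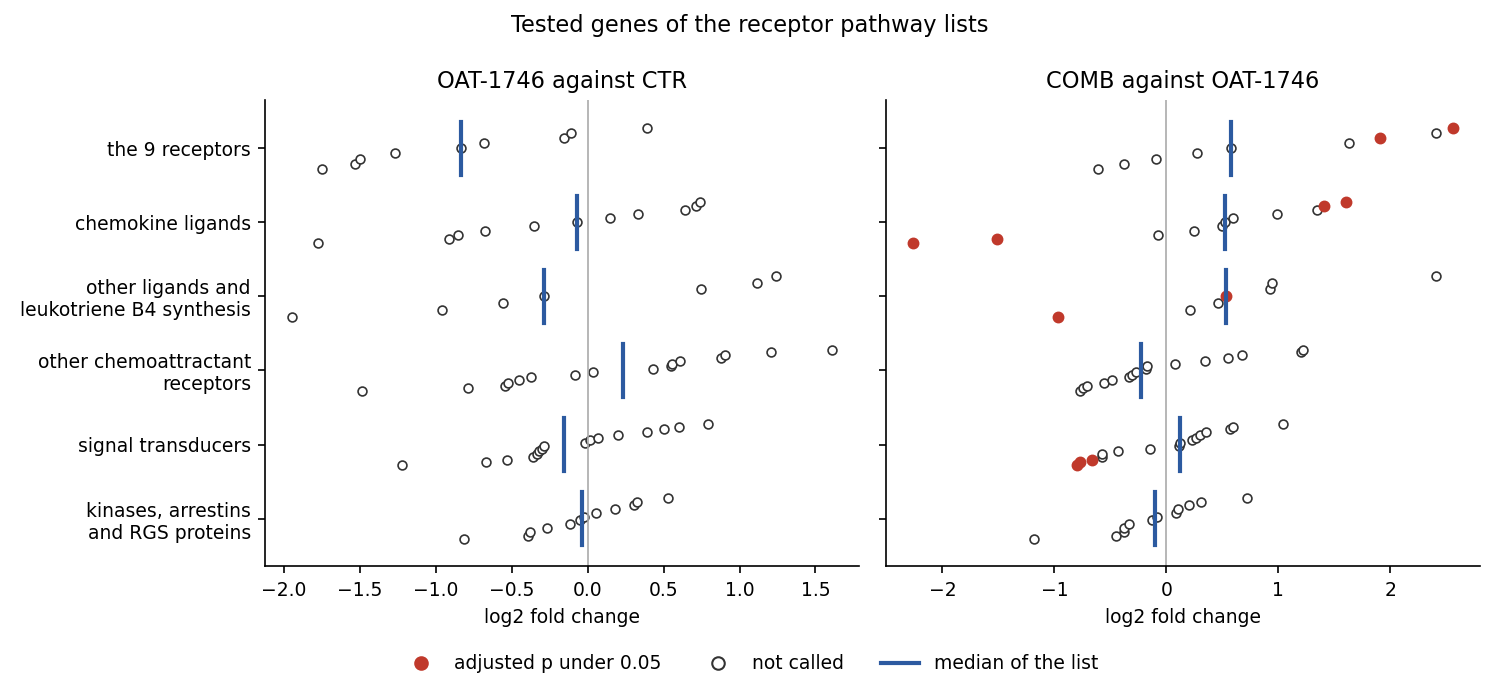
Log2 fold changes of the tested genes of each list in OAT-1746 against CTR and in COMB against OAT-1746; each point is a gene, red points have an adjusted p under 0.05, and the blue bar is the list median. The receptor median is -0.83 in the first comparison and 0.58 in the other (-0.39 and -0.069 without OAT-1746 replicate 2), where red points appear on both sides of 0 for the chemokine ligands.

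Against CTR, edgeR called 0 genes of these 5 lists in each of the 3 comparisons, and limma voom also called 0. In OAT-1746 against CTR without OAT-1746 replicate 1, edgeR called 2 higher and 4 lower of the chemokine ligands, 1 and 2 of the other ligands, 1 and 0 of the other receptors, 2 and 3 of the transducers and 0 and 1 of the last list, and without a filter it called 1 chemokine ligand lower and 1 other ligand higher. The shares of all genes called without OAT-1746 replicate 1 are those given above beside the receptor calls. Without a filter, 2.43% of all genes were called higher and 1.22% lower. In OAT-1746 against CTR the counts at an unadjusted p under 0.05 were 1 higher and 3 lower for chemokine ligands, 1 and 2 for other ligands, 2 and 1 for other receptors, 3 and 3 for transducers, and 0 and 1 for kinases, arrestins and RGS proteins, beside 16.1% of all genes higher and 16.2% lower. The counts without OAT-1746 replicate 2 were 0 and 2, 1 and 3, 1 and 2 (of 17 tested), 1 and 1, and 0 and 0 in the same order, beside 8.30% and 6.33%. The ligands of Ccr2 were among the lowest, with Ccl7 at -1.78 (SE 0.38, adjusted p = 0.0610) and Ccl2 at -0.91 (SE 0.29, adjusted p = 0.0851). Without OAT-1746 replicate 2 they were at -1.29 and -0.46. Alox5 was at 1.12 and Lta4h at -0.56, the complement receptor C3ar1 at -0.53 and Cx3cr1 at 0.90, Pik3cg at 0.79 and Elmo1 at 0.60, and Rgs14 at -0.82 and Arrb1 at 0.33. Of these, Alox5 was at 0.75, Elmo1 at 0.38 and Rgs14 at -0.33 without OAT-1746 replicate 2. DESeq2 called 0 higher and 2 lower of the chemokine ligands (Ccl2 and Ccl7), 1 and 1 of the other ligands (Alox5 and Lta4h), 1 and 1 of the other receptors (Cx3cr1 and C3ar1), 1 and 0 of the transducers (Pik3cg) and 0 of the last list. By DESeq2, 8.36% of all genes were called higher and 7.37% lower.

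In anti-PD-1 against CTR, where 3.18% of all genes were higher and 1.94% lower, the unadjusted counts were 1 higher and 0 lower for chemokine ligands (Ccl2, 0.66, with Ccl5 next at 0.83), 0 and 0 for other ligands (Anxa1 0.49, Saa3 1.01), 1 and 1 for other receptors (Cxcr5 1.69, Cxcr3 -1.10), 0 and 0 for transducers (Gng2 -0.27, Plcb2 -0.29), and 1 and 0 for kinases, arrestins and RGS proteins (Grk5 0.61, with Arrb2 at -0.38). DESeq2 called 0 of them. Without anti-PD-1 replicate 1, Plcb2 was at -0.0060, Gng2 at -0.13 and Saa3 at 0.47, and without CTR replicate 2 Cxcr3 was at -0.56 and Grk5 at 0.36. In COMB against CTR, beside 3.21% and 3.37% of all genes, they were 2 and 2 for chemokine ligands, with Ccl3 at -1.54 (adjusted p = 0.673) and Ccl5 at 1.13 (adjusted p = 0.747), 2 and 0 for other ligands (Camp 1.21, Saa3 2.18), 0 and 1 for other receptors (C3ar1 -0.45, with Cxcr6 at 2.81), 0 and 0 for transducers (Plcb2 -0.36, Dock2 -0.38), and 0 and 1 for kinases, arrestins and RGS proteins (Grk3 -0.77, with Rgs18 at -0.65). DESeq2 called Ccl3 lower and 0 of the others. Without CTR replicate 1, Camp was at 0.69 and Grk3 at -0.38, without COMB replicate 1 Rgs18 was at -1.02, and without COMB replicate 2 Dock2 was at -0.17.

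Markers of cell types that a CD11b+ sort can hold were summed in each library beside the receptors. All 10 microglial markers, led by Tmem119, were present, and their summed CPM was 7818 and 13269 in CTR, 18347 and 22812 in OAT-1746, 11756 and 10232 in anti-PD-1, and 14878, 10930 and 10319 in COMB. Each of the 10 exceeded its CTR level in OAT-1746 at an unadjusted p under 0.05, beside 16.1% of all genes (0 called by edgeR, 9 by DESeq2, 0 by limma voom). The 12 monocyte and macrophage markers, led by Tgfbi, summed to 12921 and 11537 in CTR, 8766 and 1689 in OAT-1746, 10928 and 13825 in anti-PD-1, and 9410.5, 11309.6 and 11878 in COMB, and all 12 were lower in OAT-1746 than in CTR, 3 of them at an unadjusted p under 0.05 (0 called by edgeR, 2 by DESeq2, 0 by limma voom). Of these, 8 microglial markers were higher and 0 lower, and 1 monocyte and macrophage marker was higher and 2 lower, at an unadjusted p under 0.05 without OAT-1746 replicate 2, and the median of the 12 monocyte and macrophage markers went from -0.65 to 0.11. Without CTR replicate 1, 3 microglial markers were higher and 0 monocyte and macrophage markers lower. In COMB against OAT-1746 all 10 microglial markers were lower at an unadjusted p under 0.05 (2 called), 10 of the 12 monocyte and macrophage markers were higher (2 at an unadjusted p under 0.05, 0 called), and without OAT-1746 replicate 2 the counts at an unadjusted p under 0.05 were 3 microglial markers lower and, of the 12, 2 higher and 2 lower, with 0 called. Those calls in COMB against OAT-1746 were edgeR's. DESeq2 called 5 microglial markers lower and 1 monocyte and macrophage marker higher, and limma voom 5 and 3. DESeq2 called 11.3% of all genes lower and 13.2% higher, and limma voom 11.6% and 10.8%. Of all genes, 18.8% were lower and 18.3% higher at an unadjusted p under 0.05, and edgeR called 8.94% and 6.84%. In OAT-1746 against CTR without OAT-1746 replicate 1 the median was -2.62 for monocyte and macrophage markers and 1.11 for microglial markers. OAT-1746 replicate 2 had the highest microglial and the lowest monocyte sum as well as the lowest Ccr1, Ccr2, Ltb4r1, Fpr1 and Fpr2. Their part in the receptor results was not tested.

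The 10 NK markers, led by Gzma, summed to 47.3 and 40.1 CPM in CTR, 73.3 and 19.3 in OAT-1746, 274 and 145 in anti-PD-1, and 57.6, 133 and 143 in COMB. All 10 were higher in anti-PD-1 than in CTR at an unadjusted p under 0.05, beside 3.18% of all genes (0 called by edgeR, 3 by DESeq2, 0 by limma voom), and 6 were without anti-PD-1 replicate 1. In COMB against OAT-1746 all 10 were higher, 4 of them at an unadjusted p under 0.05. Of these 10, edgeR called 0, DESeq2 3 and limma voom 1, beside 6.84%, 13.2% and 10.8% of all genes called higher. Without COMB replicate 2 or COMB replicate 3, 0 reached that unadjusted p by edgeR. By summed CPM, OAT-1746 replicate 1 lay above COMB replicate 1 and below COMB replicates 2 and 3. The 4 libraries with the most NK signal were the 4 with the most Ltb4r1, in another order. Among these 4, anti-PD-1 replicate 1 had the most NK signal, while COMB replicate 2 had the least NK signal and the most Ltb4r1. The 10 neutrophil markers, led by Csf3r, summed to 341 and 525 CPM in CTR, 561 and 729.8 in OAT-1746, 408 and 410.3 in anti-PD-1, and 476, 480.3 and 476 in COMB, with a mean of 303 for Csf3r alone. Of these markers, 8 were higher and 2 lower in OAT-1746 than in CTR. At an unadjusted p under 0.05, 5 were higher and 0 lower, beside 16.1% and 16.2% of all genes. DESeq2 called 1 of them higher and edgeR and limma voom 0. Their median log2 fold change was 0.77, and 0.35 without OAT-1746 replicate 2. In COMB against OAT-1746, 3 were higher and 7 lower. There edgeR, DESeq2 and limma voom each called 1 lower, beside 8.94%, 11.3% and 11.6% of all genes. The 9 immediate early genes, led by Junb, summed to 9474 and 8759.8 CPM in CTR, 13402 and 20272.5 in OAT-1746, 8749 and 11214 in anti-PD-1, and 4865, 5298 and 5422 in COMB, and 8 of the 9 fell in COMB against OAT-1746, 3 of them also called without OAT-1746 replicate 2. Of all genes, 8.94% were called lower in COMB against OAT-1746, and the number called without OAT-1746 replicate 2 is given above. In COMB against CTR and against anti-PD-1, 8 of the 9 immediate early genes were lower at an unadjusted p under 0.05. The shares of all genes were 3.37% and 5.26%. There edgeR called 0 of these genes, DESeq2 5 in each and limma voom 1 and 4. Of all genes, DESeq2 called 0.128% and 0.319% lower and limma voom 0.0160% and 0.271%. The 8 mature dendritic cell markers, led by Fscn1, summed to 397 and 592 CPM in CTR, 839.9 and 872 in OAT-1746, 632 and 585 in anti-PD-1, and 655, 509.6 and 516 in COMB, with a mean of 485 for Fscn1 alone, while 5 of the 8 were lower in OAT-1746 than in CTR and 6 of the 8 higher in COMB than in OAT-1746. Over the 9 libraries the sums ran from 618 to 887 CPM for 8 border-associated macrophage markers (F13a1), 91.1 to 129.7 for 8 dendritic cell markers (Cd209a), 9.71 to 24.0 for the 7 found of 8 T cell markers (Cd4), 10.5 to 25.8 for the 5 found of 6 B cell markers (Cd79b), 166 to 328 for 6 oligodendrocyte markers (Mbp) and 87.2 to 155 for 6 endothelial markers (Flt1), each with its most abundant gene in parentheses. None of the markers found was at 0 in all libraries. The part of these markers in the receptor results was not tested.

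**Figure D4:**
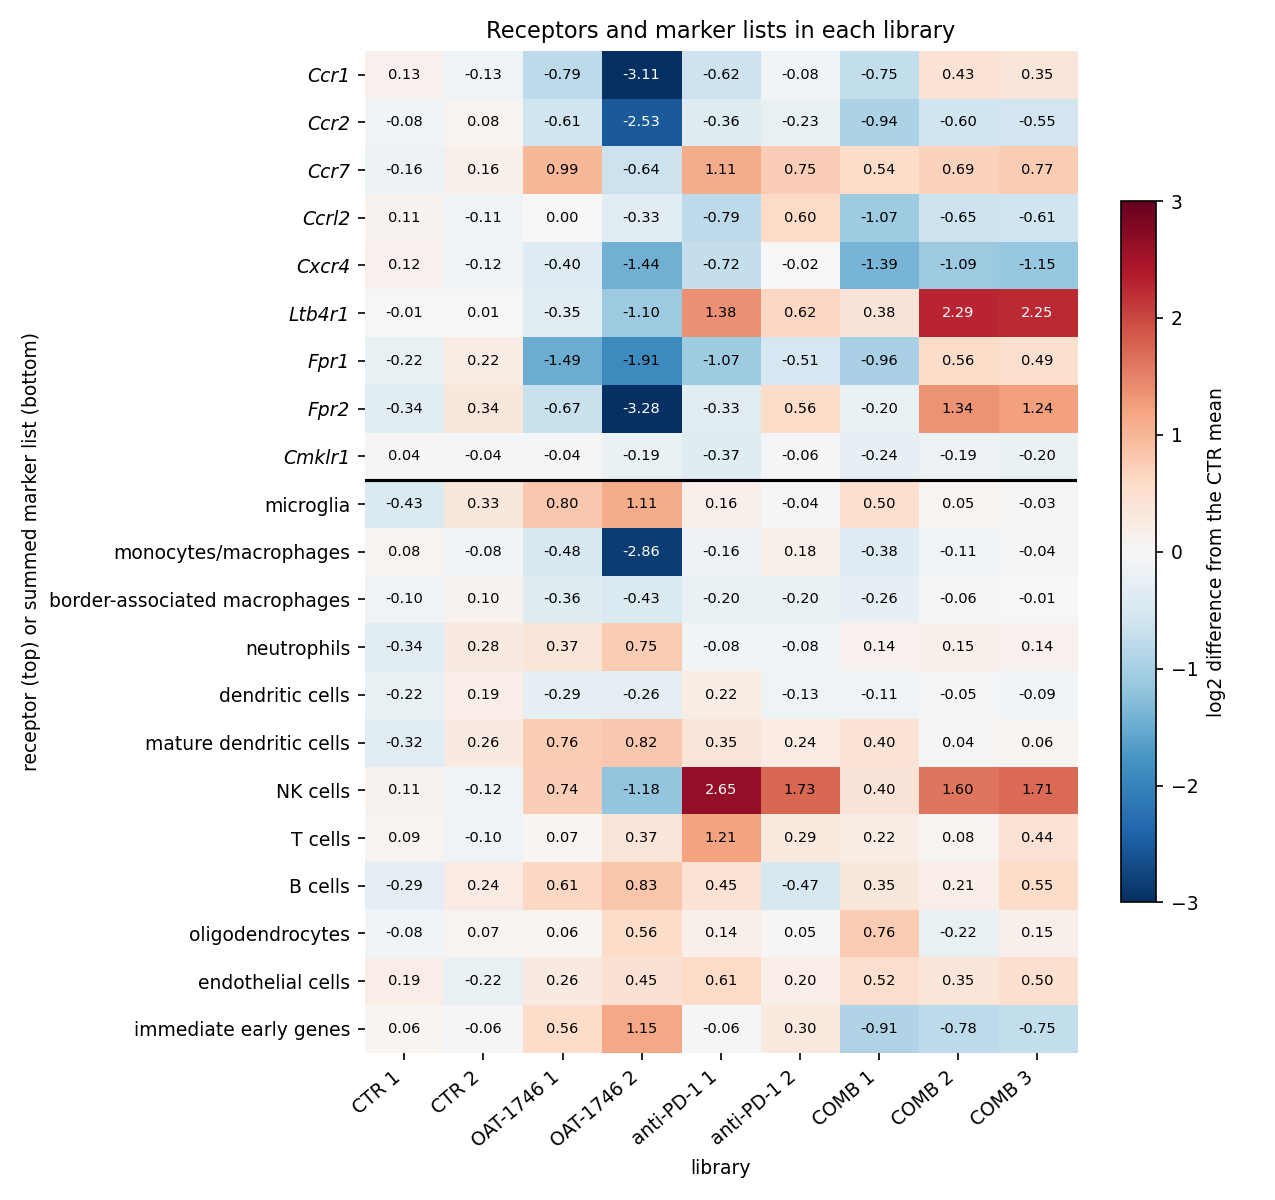
Log2 difference of every library from the CTR mean for the 9 receptors (above the line) and for the summed CPM of each marker list (below it), on a color scale from -3 to 3. OAT-1746 replicate 2 is at -3.11 for Ccr1 and -2.86 for the monocyte and macrophage sum, and COMB replicates 2 and 3 are at 2.29 and 2.25 for Ltb4r1.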

How the data were processed

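RNA from CD11b+ cells of 9 libraries was sequenced as stranded, paired-end poly-A libraries. The authors used Trimmomatic for trimming and STAR for alignment to mm10, flagged duplicates with Picard and deposited raw counts per gene from HTSeq with a minimum mapping quality of 10. The release of their gene annotation is not stated. Close paralogs such as the Fpr genes can lose reads to that filter. Symbols, gene types and exon lengths came from GENCODE M21, which held 53620 of the 53801 genes, and 21890 protein-coding genes were kept. Total counts ran from 13048075 to 18796479 per library. Reads without molecular identifiers are not independent molecules.

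Libraries were grouped by their titles. edgeR 4.0.16 in R 4.3.3 scaled the counts by TMM, kept genes by filterByExpr with a minimum count of 10 (12538 genes) and fitted group means to all 9 libraries, with a common biological coefficient of variation of 0.214. CPM values use the TMM-scaled library sizes. The quasi-likelihood test compared each treated group with CTR, COMB with each single treatment, and the OAT-1746 differences with and without antibody. Genes with a Benjamini-Hochberg adjusted p under 0.05 were called, and unadjusted p-values under 0.05 were counted beside the share of all genes. The methods give 2 or 3 biological replicates for each treatment, the labels do not say whether each library is a separate animal, and p-values measure the spread between these libraries.

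The 9 receptors, the pathway lists and the marker lists were chosen with earlier results of these data known, and 2 genes first placed on these lists are not reported here. Of each pathway list, the gene with the highest mean CPM was named, with the 2 genes of smallest p in each comparison against CTR and in COMB against OAT-1746. The pathway lists are not described for COMB against anti-PD-1 or for the interaction. For each receptor the 3 genes with the highest Pearson r of log2 CPM (prior count 2) were named. Alternatives were DESeq2 1.42.0 (its size factors and its Wald test), limma 3.58.1 voom with quality weights, library size alone, no filter on low counts, 10 counts in every library, all gene types, robust estimation, a replicate block, only the groups compared, and each library left out in turn. The same alternatives were applied to the named genes of the pathway lists, in the comparisons against CTR and in COMB against OAT-1746, which was chosen after seeing the data. With 1 OAT-1746, CTR or anti-PD-1 library left, that library is assumed to vary like the other groups. The pipeline was tested on simulated data. Promoters came from RefSeq, tables were handled with pandas 2.3.3 in Python 3.11.15, and plots were drawn with matplotlib 3.10.9.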

Additional observations from a re-analysis of the deposited data

How the results depend on the processing

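Of the log2 fold changes compared with their value under another setting, 1719 kept direction and side of the threshold, 88 kept direction but were no longer called, 57 became called and 44 changed direction; of the counts, 148 stayed within 1.5 times and 78 did not. The alternatives for the named pathway genes were chosen after seeing the data, and among those genes Alox5ap and Arrb2 changed direction, both in COMB against OAT-1746: Alox5ap (0.21) was -0.040 and Arrb2 (0.10) was -0.00015 without OAT-1746 replicate 2, and Arrb2 was -0.0074 without COMB replicate 2, while without OAT-1746 replicate 1 they were 0.54 and 0.22. Causes were not tested. Groups held 2 or 3 libraries, the scarcest receptor value was 36 counts, and no detection limit was computed. Scaling moved the all-gene median by less than 0.1 in the comparisons of a pair of groups and from -0.02 to -0.11 in the interaction under library size only.

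Genes called in OAT-1746 against CTR (0) were 1972 with DESeq2 and 587 without a filter; in anti-PD-1 against CTR (0), 14 with DESeq2; in COMB against CTR (0), 35 with DESeq2, 2 with voom, 2 without a filter and 5 with only the groups compared; in COMB against OAT-1746 (1979), 3062 with DESeq2 and 30 with only the groups compared; in COMB against anti-PD-1 (0), 47 with DESeq2, 35 with voom, 2 without a filter and 2 with only the groups compared; in the interaction (45), 24 with library size only, 1053 with DESeq2, 428 with voom, 146 without a filter and 18 with all genes. edgeR's unadjusted counts for these comparisons are 4049, 642, 825, 4651, 907 and 3281.

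Receptors at an unadjusted p under 0.05 in OAT-1746 against CTR (4) were 1, lower, with only the groups compared, beside 9.83% of all genes. In anti-PD-1 against CTR (0) they were 1 with library size only, 2 with DESeq2, 1 with voom and 1 without a filter, all higher. The shares of all genes higher were then 3.39%, 3.06%, 4.09% and 2.74%. With only the groups compared there were 3, 2 higher and 1 lower, beside 4.04% and 2.56%. In COMB against CTR (2) they were 5 with voom, 3 higher and 2 lower, beside 7.08% and 7.78%. With only the groups compared they were also 5, 2 higher and 3 lower, beside 4.53% and 5.61%. In COMB against anti-PD-1 (0 higher and 2 lower) they were 3 higher and 1 lower with voom, beside 5.47% and 10.4%. In the interaction (2) they were 4 with voom, 4 without a filter and 1 with robust estimation, all higher, beside 15.5%, 11.0% and 11.7%.

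With a replicate block, which the replicate numbers do not call for (same-numbered deviations correlate at -0.349 to 0.0999 between groups, so the numbers show no pairing), 2 genes were called in COMB against OAT-1746 and 0 in the interaction, Ltb4r1 and Fpr1 in COMB against OAT-1746 had adjusted p = 0.217 each, the receptor counts were 2, 2, 0 and 1 in OAT-1746 against CTR, COMB against OAT-1746, COMB against anti-PD-1 and, last, the interaction, and Ccrl2 in anti-PD-1 against CTR was -0.017, Ccr1 in COMB against CTR -0.0077 and Fpr1 in COMB against CTR -0.11.

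Leaving out 1 library, genes called ranged from 0 to 3617 in OAT-1746 against CTR (3617 without OAT-1746 replicate 1, 278 without COMB replicate 1), 5 to 4033 in COMB against OAT-1746, 0 to 52 in COMB against anti-PD-1 and 0 to 2734 in the interaction. The receptor counts ranged from 1 to 6, 0 to 2, 2 to 5, 3 to 6, 0 to 4 and 1 to 5 in the 6 comparisons in the order above. The shares of all genes at an unadjusted p under 0.05 moved between these fits too. In COMB against OAT-1746 they were 18.7%, 11.8% and 12.7% higher without COMB replicates 1, 2 and 3, and 21.2%, 13.2% and 12.3% lower. Fold changes that changed sign ranged from -0.65 to 1.00 for Ccr7 and -0.34 to 0.012 for Ccrl2 in OAT-1746 against CTR, -0.80 to 0.60 for Ccrl2 and -0.37 to 0.52 for Fpr2 in anti-PD-1 against CTR, -0.10 to 0.37 for Ccr1 and -0.080 to 0.49 for Fpr1 in COMB against CTR, -0.069 to 1.84 for Ccr2, -0.31 to 1.32 for Ccr7 and -0.79 to 0.24 for Cxcr4 in COMB against OAT-1746, -1.37 to 0.032 for Ccrl2 and -0.16 to 0.17 for Cmklr1 in COMB against anti-PD-1, and -1.24 to 0.39 for Ccr7, -1.20 to 0.20 for Ccrl2, -0.45 to 0.58 for Cxcr4 and -0.037 to 0.29 for Cmklr1 in the interaction.

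Among the other settings, Ccrl2 in anti-PD-1 against CTR (0.07) was -0.087 with voom and Cxcr4 in the interaction (-0.04) 0.13 with voom. Cmklr1 in COMB against anti-PD-1 (-0.00) was 0.024 with DESeq2 size factors, 0.0030 with library size only, 0.024 with DESeq2, 0.013 with voom, 0.025 without a filter, 0.032 with 10 counts in every library, 0.024 with all genes and 0.013 with only the groups compared. Ltb4r1 and Fpr1 in COMB against OAT-1746 were at an adjusted p of 0.0820 and 0.0848 with only the groups compared, and Fpr1 at 0.0567 with voom. Fpr2 in the same comparison (adjusted p = 0.0527) was called with library size only (0.0488), without a filter (0.0295) and with 10 counts in every library (0.0487).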
